A study of Mus musculus with 10 samples.

Results

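Genes of the biotype TEC, an annotation label for transcripts still awaiting experimental proof, were examined in mouse bladder RNA. They were selected on their measured level: autosomal TEC genes of GENCODE vM21 with a mean raw count of at least 15 over the 10 libraries, all genotypes together. This rule took 156 of 3204 autosomal TEC genes, among 55536 genes counted in all. The mean counts of the 156 ran from 15.2 to 3234.5 with a median of 27.95. Gm45110 and Gm10676, both at 15.2, lay just inside the minimum, and Gm44914 and Gm43300, both at 14.9, just outside it.

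The study compared bladders of wild type (WT) C57BL/6 mice with those of mice lacking OMD (osteomodulin, 3 libraries) or PRELP (3 libraries), secreted proteoglycans of the small leucine-rich repeat family, with 4 WT libraries. Per the study's methods both knockouts were constitutive, with exons replaced by a beta-galactosidase gene under the promoter of the targeted gene, so the knockout animals also carry that reporter. The labels give homogenised bladder tissue for every library, while the paper speaks of isolated epithelia, and they give no age or sex. For its RNA-seq the paper states fewer WT and more OMD-/- samples than the libraries used here, and the same number for PRELP-/-. Nothing in the labels says how the animals behind the libraries were related, so p-values measure the spread between these libraries.

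TEC is a label that manual annotators give to places with spliceless transcript evidence, usually a cluster of expressed sequence tags with a poly(A) feature, when neither a coding sequence nor a spliced structure has been shown. Such models often lie inside introns of known genes or just past their ends. There, RNA can come from a separate transcription unit, from an intron that was kept in the message or ended early, or from transcription that ran on beyond the gene. Poly(A) selection favours RNA with a tail, and the hexamer AATAAA or its variant ATTAAA a short way before the RNA's end is the usual signal for adding one.

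Of the 156 genes, 155 had 1 exon and 1 had 2 exons, and their lengths ran from 298 to 30942 bases with a median of 2453. They lay on 19 chromosomes. Of these, 60 (38.5%) lay wholly within a coding gene of the same strand, each within a different one, here called the host. Among these 60, 53 lay in intron only and 7 reached into a host exon. Another 19 (12.2%) lay within a coding gene on the other strand only, 23 (14.7%) began up to 5000 bases downstream of a coding gene on the same strand, 1 (0.641%) overlapped one in part, and 53 (34.0%) lay elsewhere. Inside the hosts the median position was 0.625 of the way from start to end, with quartiles of 0.276 and 0.748.

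AATAAA or ATTAAA, searched on the transcribed strand, stood in the last 50 bases of 69 of the 156 genes (44.2%). The share was 28.1% of the 3048 autosomal TEC genes below the count minimum, 56.0% of 318 lincRNA genes and 74.3% of 13147 protein_coding genes above the same minimum. The median GC content was 44.1% in the 156 genes, 48.0% in the lincRNA genes and 50.0% in the coding genes. The last 60 bases of 6 of them, from the GENCODE vM21 transcripts (build GRCm38), are shown because the results below turn on these genes. Capitals mark AATAAA or ATTAAA, and each sequence reads 5′ to 3′ on the strand of the gene.
Gm44250 (chr6:5216258-5216317, minus strand): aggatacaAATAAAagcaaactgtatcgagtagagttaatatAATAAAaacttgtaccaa
Gm48878 (chr10:122456750-122456809, plus strand): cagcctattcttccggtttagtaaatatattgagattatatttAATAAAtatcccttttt
Gm45838 (chr7:83635758-83635817, plus strand): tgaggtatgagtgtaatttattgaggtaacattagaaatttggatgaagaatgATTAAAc
Gm49759 (chr9:59676641-59676700, plus strand): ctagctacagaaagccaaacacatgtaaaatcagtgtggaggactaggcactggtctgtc
Gm37261 (chr3:51673842-51673901, plus strand): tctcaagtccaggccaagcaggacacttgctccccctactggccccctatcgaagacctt
Gm49246 (chr15:36499977-36500036, minus strand): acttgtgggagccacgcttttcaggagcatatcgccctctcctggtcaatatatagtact
The first 3 hold a hexamer, and the last 3 have none in these letters. Gm44250 holds 2, of which the first begins before the last 50 bases. In Gm45838 the hexamer stands almost at the annotated end, not a short way before it. Whether any of these hexamers acts as a signal was not tested.

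Some libraries stood apart. Total counts were 20391437 to 25905707, except 46269079 in WT replicate 1, which nevertheless had fewer detected genes (21863) than the other WT libraries (24266 to 25776). Reads on the Y chromosome were 179 and 211 CPM (counts scaled to a common library total) in WT replicates 2 and 1. They were 98.2 in PRELP-/- replicate 1 and 17.4 to 18.5 in OMD-/- replicate 1 and PRELP-/- replicates 2 and 3. The remaining libraries had 0.903 to 1.60. The Y chromosome level was thus not balanced over the groups, and the intermediate levels leave the sex of some libraries unclear. PRELP-/- replicate 1 also had 8884 CPM on processed pseudogenes, against 5142 to 6004 in the other 9. Prelp had 4848 to 15890 counts in WT and 46 to 74 in PRELP-/-, and Omd had 0 counts in each OMD-/- library but only 0 to 12 in WT. Counting did not use strand: all 460 genes covered whole by exons of genes on the other strand had 0 counts in every library, as did all 712 covered by exons of the same strand. A read over a TEC gene can therefore come from either strand, and a read over exons of 2 genes was dropped. For 45 of the 156 genes some exon bases were shared with another gene.

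The summed level of the 156 genes was lower in both knockouts. It was 566, 550, 559 and 576 CPM in the WT libraries, 351, 387 and 377 in OMD-/- and 174, 331 and 358 in PRELP-/-. All 6 knockout libraries were under all 4 WT libraries, and PRELP-/- replicate 1 was the lowest. The means were 563 ± 11.2 (SD, n = 4), 372 ± 18.8 (n = 3) and 288 ± 98.9 (n = 3). One gene, Gm44250, held 30.2% of these counts and the 5 genes of highest mean count held 43.4%. Without those 5 the means were 342 ± 12.7, 177 ± 16.8 and 163 ± 31.4 CPM. With effective (TMM-scaled) library sizes the means of all 156 were 516 ± 5.82, 382 ± 7.67 and 308 ± 82.2 CPM, a smaller fall. The genes were chosen on these same counts, so genes high in WT alone could enter and lower the knockout sums relative to WT. In bulk tissue, fewer cells of a type and less RNA per cell cannot be told apart.

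**Figure D1:**
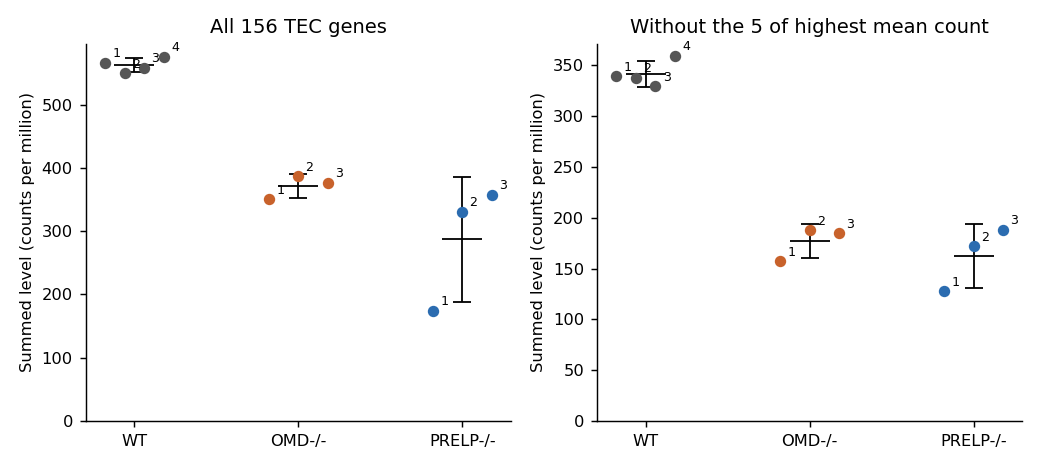
Summed level of the TEC genes in CPM for each library (points, labelled by replicate), with group mean and SD (bars), for all 156 genes and without the 5 of highest mean count. The WT libraries lie between 550 and 576 CPM in the first panel, and all knockout libraries lie at 387 or below.

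Single genes were tested with edgeR's quasi-likelihood test on all genes, with Benjamini-Hochberg adjustment and a threshold of 0.05, and 155 of the 156 passed the filter on low counts in the comparisons with WT. Gm38056, in an intron of Plcl1, was not tested. Because a mean over all libraries chose the genes, a gene high in one group alone could enter. The mean was of raw counts, so WT replicate 1, with 46269079 counts in total, weighed most. The counts below are set beside all genes tested. Both comparisons share the WT libraries.

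In OMD-/- against WT, 62 genes were lower and 3 were higher. Of all 16647 genes tested, 15.1% were lower and 14.3% higher. The median log2 fold change was -0.82 over the 155 genes and -0.00020 over all tested genes, and 131 of the 155 lay below 0. In 72 genes every OMD-/- library lay below every WT library and in 4 above it, against 19.6% and 19.3% of all tested genes.

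In PRELP-/- against WT, 48 genes were lower and 0 higher, against 5.89% and 1.4% of 16581 genes. At an unadjusted p under 0.05, 78 were lower and 4 higher by the same edgeR test, and limma-voom with sample quality weights called 4 higher and DESeq2 called 0. The median log2 fold change was -0.83, against 0.023 over all genes, and 124 of 155 lay below 0. Every PRELP-/- library lay below every WT library in 79 genes and above in 2, against 16.4% and 13.6% of all genes. Without PRELP-/- replicate 1 the calls were 50 lower and 3 higher, and without PRELP-/- replicate 2 they were 31 lower.

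In both comparisons 45 genes were lower, 17 only in OMD-/- and 3 only in PRELP-/-, and 87 of the 155 passed in neither. The shared WT libraries favour such overlap for any gene. The share of all genes lower in both is not given here, so the 45 is not read as particular to TEC genes. A call in one knockout and not in the other is not a difference between them. PRELP-/- against OMD-/- was tested in 123 of the genes, of which 0 passed, with 3 at an unadjusted p under 0.05 and a smallest edgeR adjusted p of 0.690. Over all genes 0.00633% passed in that comparison. DESeq2 also called 0 and limma-voom with quality weights 2 higher and 2 lower. The median log2 fold change was -0.047.

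Gm44250 (chromosome 6, 5216258 to 5220486, minus strand) was the TEC gene with the most reads. It begins 366 bases past the end of Pon3, which encodes a paraoxonase, a lactone-cleaving enzyme. Its counts were 7453, 2999, 3379 and 2990 in WT, 3056, 3337 and 2905 in OMD-/-, and 605, 2918 and 2703 in PRELP-/-. Only PRELP-/- replicate 1 was far below the rest. TMM-normalised levels were 140 ± 10.1 CPM (SD, n = 4) in WT, 139 ± 5.94 (n = 3) in OMD-/- and 91.8 ± 49.9 (n = 3) in PRELP-/-, and neither knockout differed from WT by the edgeR test (adjusted p = 0.930 and 0.324). Pon3 had log2 fold changes of 0.08 in OMD-/- and 0.12 in PRELP-/-.

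Gm48878 (chromosome 10, 122454132 to 122456809, plus strand) rose in OMD-/-. It begins 680 bases past the end of Avpr1a, a receptor for vasopressin. Counts were 788, 361, 436 and 461 in WT, 1032, 1002 and 920 in OMD-/-, and 285, 795 and 738 in PRELP-/-. Every OMD-/- library was above every WT library once scaled to depth, while the PRELP-/- libraries were uneven. The levels were 17.8 ± 2.42 CPM (n = 4), 44.4 ± 3.69 (n = 3) and 27.3 ± 9.69 (n = 3), a log2 fold change in OMD-/- of 1.32 (SE 0.12, edgeR adjusted p = 3.85e-05). Avpr1a had nearly the same log2 fold change, 1.34 in OMD-/- and 0.84 in PRELP-/-, where Gm48878 had 0.61 (adjusted p = 0.175).

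Gm49246 (chromosome 15, 36499977 to 36503431, minus strand) begins 631 bases past the end of Snx31, a sorting nexin of the urothelium's umbrella cells. Its counts were 826, 485, 289 and 286 in WT, 28, 43 and 47 in OMD-/-, and 3, 48 and 35 in PRELP-/-. All knockout libraries were far below all WT libraries. The level was 15.8 ± 4.01 CPM (n = 4) in WT, 1.76 ± 0.417 (n = 3) in OMD-/- and 1.23 ± 0.934 (n = 3) in PRELP-/-, with log2 fold changes of -3.15 and -3.64 (edgeR adjusted p = 1.66e-05 and 0.00677). Snx31 had 0.14 in each knockout.

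**Figure D2:**
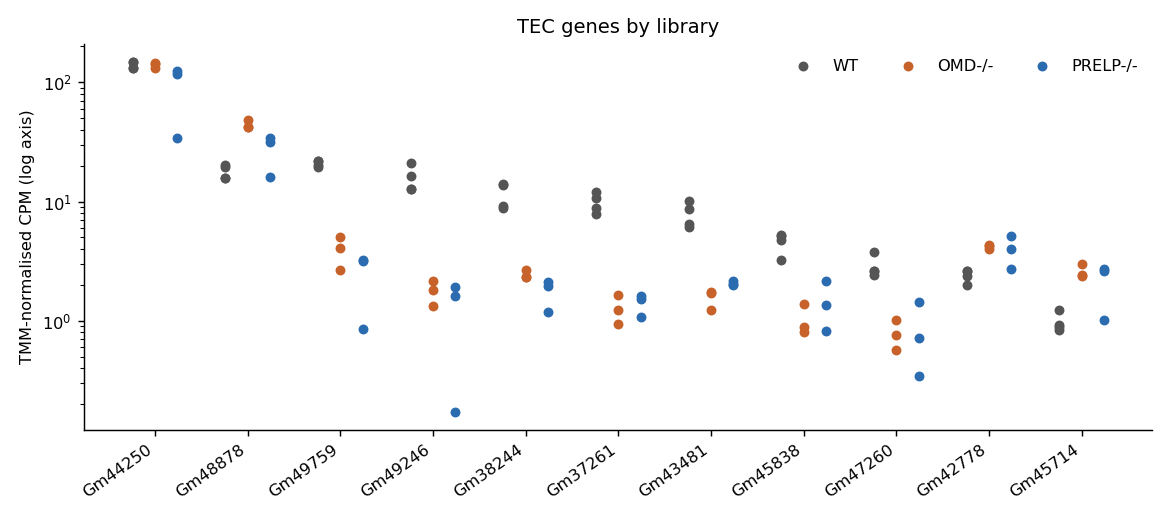
TMM-normalised CPM (log axis) of 11 TEC genes in each library, coloured by genotype. Gm49759, Gm49246, Gm38244, Gm37261, Gm43481, Gm45838 and Gm47260 have all 6 knockout libraries below all 4 WT libraries, while Gm48878, Gm42778 and Gm45714 are higher in OMD-/-.

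Among the 10 genes with the highest mean count, Gm49759, Gm49246, Gm38244 and Gm37261 were lower in both knockouts, Gm48878 was higher in OMD-/-, and Gm44250, Gm10524, Gm45133, Gm43737 and Gm44220 passed in neither. Gm38244, which lies within no coding gene, had 706, 315, 199 and 209 counts in WT, 49, 63 and 51 in OMD-/-, and 21, 49 and 46 in PRELP-/-. Its log2 fold changes were -2.24 (SE 0.22) and -2.71 (SE 0.30), with edgeR adjusted p = 6.42e-05 and 0.00164. Gm45133 had 441, 194, 181 and 173 counts in WT, 149, 194 and 152 in OMD-/-, and 121, 186 and 159 in PRELP-/-, with log2 fold changes of -0.16 and -0.21.

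The strongest falls were in genes with few reads left in 1 or both knockouts. The genes named for them met the count minimum mainly through their WT counts, so the selection rule favoured such falls. Gm29008, 2763 bases past the end of Ptpn6, a tyrosine phosphatase of blood cells, had 54, 27, 43 and 33 counts in WT, 0, 0 and 3 in OMD-/-, and 0, 2 and 0 in PRELP-/-. Pooled by group, its level in OMD-/- was 3.03% of WT (95% exact counting interval 0.618% to 9.02%) and in PRELP-/- 1.98% (0.238% to 7.28%). Gm43127, inside Als2cl on the other strand, had 149 counts over WT and 3 over OMD-/-, or 3.19% of the WT level (0.651% to 9.51%). These intervals cover counting error only.

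Gm30238 had 114, 40, 35 and 36 counts in WT, 1, 2 and 1 in OMD-/-, and 0, 1 and 6 in PRELP-/-, with log2 fold changes of -4.81 and -4.01. Gm45527, in an intron of Trim68, had 117, 54, 38 and 32, then 6, 0 and 1, then 0, 3 and 2, with -4.15 and -4.61. Gm37893, in an intron of Trmt1l, had 146, 58, 47 and 34 in WT, 4, 15 and 19 in OMD-/-, and 2, 3 and 3 in PRELP-/-, with -1.99 and -4.16. In all of these the groups did not overlap with WT.

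The 3 genes that rose in OMD-/- were Gm48878, Gm45714 and Gm42778. Gm45714 had 62, 21, 20 and 19 counts in WT, 50, 57 and 66 in OMD-/-, and 18, 65 and 59 in PRELP-/-, with a log2 fold change in OMD-/- of 1.40 (SE 0.26, edgeR adjusted p = 0.00306). Gm42778, in an intron of Ttc28, had 131, 60, 54 and 45, then 90, 95 and 95, then 48, 100 and 112, with 0.80 (SE 0.19, edgeR adjusted p = 0.0108).

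By place, the genes within a coding gene of the same strand had the lowest median fold changes. In OMD-/-, 32 of 59 tested were lower and 1 higher, and the median log2 fold change was -1.56. In PRELP-/- 28 were lower and the median was -1.54. Within a coding gene on the other strand only, 5 and 3 of 19 were lower, with medians of -0.30 and -0.66. Downstream of a coding gene 5 of 23 were lower in each knockout, with -0.27 and -0.61, and elsewhere 20 and 12 of 53, with -0.67 and -0.55. Over all tested genes 15.1% were lower and 14.3% higher in OMD-/-, and 5.89% and 1.4% in PRELP-/-. The classes for the other strand and downstream were set after values had been seen, and the differences between classes were not tested.

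**Figure D3:**
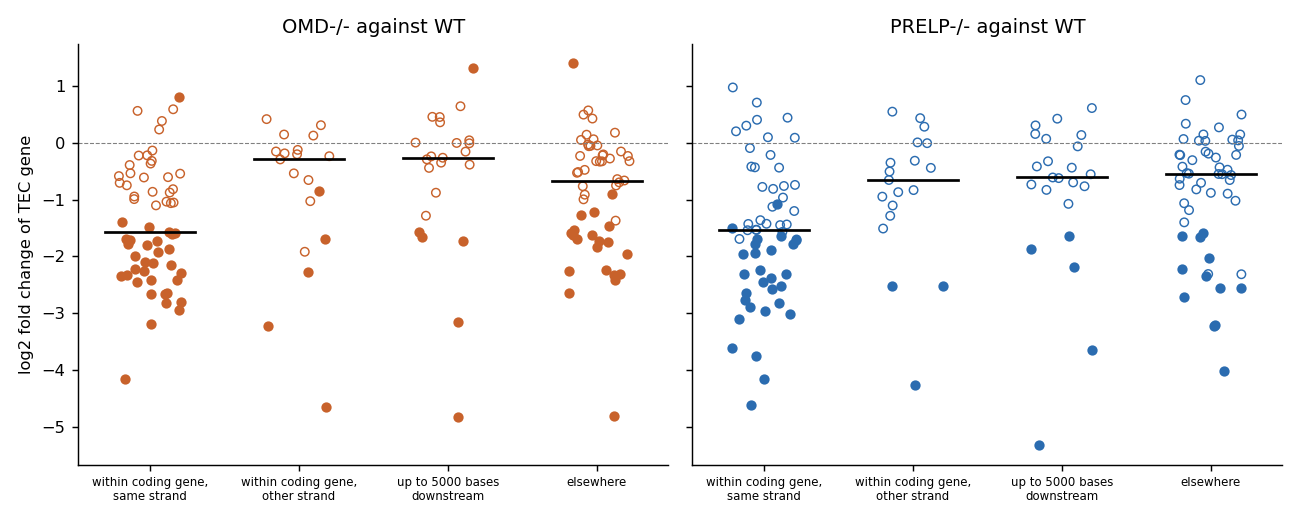
Log2 fold change against WT of each TEC gene tested, by its place, in OMD-/- and PRELP-/-. Filled points passed the test (adjusted p under 0.05), open points did not, and black lines are medians, the lowest of which are -1.56 and -1.54 for genes within a coding gene of the same strand.

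The 7 genes that reached from an intron into a host exon had medians of -2.15 and -2.57, with 6 of 7 lower in each knockout. Of the 69 genes with AATAAA or ATTAAA near the end, 19 were lower in OMD-/- and 12 in PRELP-/-, with medians of -0.44 and -0.55. Of the 86 tested genes without it, 43 and 36 were lower, with medians of -1.29 and -1.44. Over all tested genes 15.1% were lower in OMD-/- and 5.89% in PRELP-/-. Most genes within a coding gene of the same strand lacked the hexamer, and most downstream genes had it. Hexamer and place therefore overlap in part. The hexamer was not read within each place, so these shares do not separate them and are descriptions.

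Fold changes of the hosts centred near 0 while those of the TEC genes inside them did not. In the 57 pairs where both were tested, the median log2 fold change in OMD-/- was -1.56 for the TEC gene and -0.0024 for the host, and the TEC gene lay below its host in 51. In PRELP-/- the medians were -1.54 and 0.0074, and it lay below in 50. Of the 31 TEC genes of these pairs that were lower in OMD-/-, the host was lower in 9, passed in neither direction in 16 and was higher in 6. Of the 27 lower in PRELP-/-, the host was lower in 2 and did not pass in 25.

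Per library, the ratio of TEC gene counts to host counts was lower on average in 52 of 60 pairs in each knockout. In OMD-/- the ratio in every library lay below every WT library in 36 pairs and above in 1. Among all 344 autosomal genes of the same count minimum within a coding gene of their strand, TEC genes included, the shares were 25.6% below and 6.69% above. In PRELP-/- it lay below in 40 and above in 2, against 22.7% and 8.43%. Of the 344 genes, 84 had a host with 0 counts, against 2 of the 60 pairs. For those the ratio followed the gene's own count alone, and shares without such hosts are given at the end. With 4 against 3 libraries the smallest two-sided exact permutation p is 0.0571, so no single pair can pass 0.05. The hosts Gm43552 and Igsf5 had 0 counts in all libraries. A separate annotated gene, also named Igsf5, lies upstream of the TEC gene AC154258.1, so this 0 does not cover every entry of that name.

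Read density, counts per base of exon, was low against the host's exons and fell further. In WT the TEC gene's density was 5.31% of its host's at the median, with quartiles of 2.06% and 14.1%. The medians were 2.45% in OMD-/- and 1.71% in PRELP-/-.

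**Figure D4:**
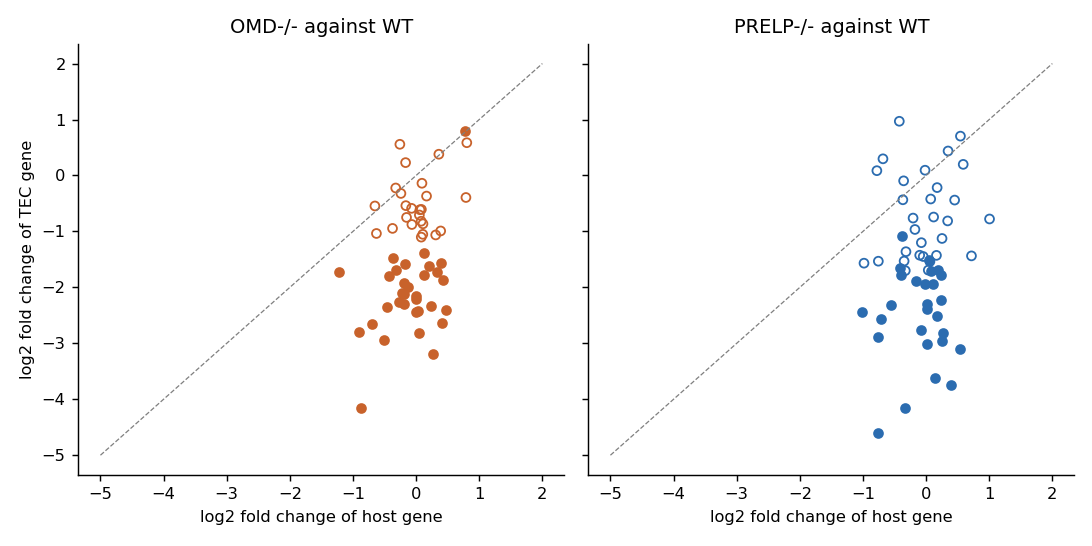
Log2 fold change against WT of each TEC gene (vertical) and of the coding gene it lies within (horizontal), in OMD-/- and PRELP-/-, with filled points for TEC genes that passed the test. The dashed line marks equal change, and 51 of 57 points in OMD-/- and 50 of 57 in PRELP-/- lie below it.

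Pairs were ranked by the difference between the log2 fold changes of TEC gene and host relative to its standard error, so genes with few reads and larger folds, such as Gm45527, rank lower. The first 5 in OMD-/- were led by Gm49759 (chromosome 9, 59672814 to 59676700, plus strand), within Pkm, which encodes pyruvate kinase of glycolysis. Gm49759 had 1099, 448, 458 and 495 counts in WT, 56, 97 and 111 in OMD-/-, and 15, 79 and 70 in PRELP-/-. Its level was 20.9 ± 1.19 CPM (n = 4), 3.94 ± 1.22 (n = 3) and 2.41 ± 1.35 (n = 3), with no overlap between either knockout and WT. The log2 fold changes were -2.40 and -3.10 (edgeR adjusted p = 2.23e-05 and 0.00294), and those of Pkm were 0.47 and 0.54.

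Gm37261 lies in an intron of Mgst2, a microsomal glutathione S-transferase. It had 538, 275, 178 and 198 counts in WT, 20, 39 and 27 in OMD-/-, and 19, 40 and 33 in PRELP-/-. The log2 fold changes were -2.94 and -2.82 (edgeR adjusted p = 2.44e-05 and 0.00062), while Mgst2 had -0.50 and 0.27.

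Gm43481 lies in an intron of Gtf2i, a general transcription factor, and had 436, 232, 146 and 138 counts in WT, 26, 40 and 38 in OMD-/-, and 36, 54 and 43 in PRELP-/-. Its log2 fold changes were -2.33 and -1.95, and those of Gtf2i 0.24 and 0.11. Gm45838, in Stard5, a lipid transfer protein, changed by -2.15 and -1.69 and its host by -0.01 and 0.19. Gm47260, in Ddx24, an RNA helicase, changed by -1.87 and -1.78 and its host by 0.43 and 0.23.

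Among the pairs that differed least by this measure were those of Lamb3, a laminin chain of the basement membrane, and Ttc28. In OMD-/-, Gm37691 had a log2 fold change of 0.38 and Lamb3 0.36, and Gm42778 had 0.80 and Ttc28 0.78. In PRELP-/-, Gm37691 had 0.44 with Lamb3 at 0.35, and Gm42778 had 0.70 with Ttc28 at 0.54.

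Other noncoding classes had calls as well. Of all TEC genes tested, including those under the count minimum, 41.3% of 288 were lower in OMD-/-, against 45.2% of 31 sense_intronic, 43.7% of processed_transcript, 33.0% of antisense, 32.5% of lincRNA and 13.6% of protein_coding genes. In PRELP-/- the shares were 24.7%, 35.5%, 21.4%, 22.2%, 15.9% and 4.51%. The differences between these classes were not tested.

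**Figure D5:**
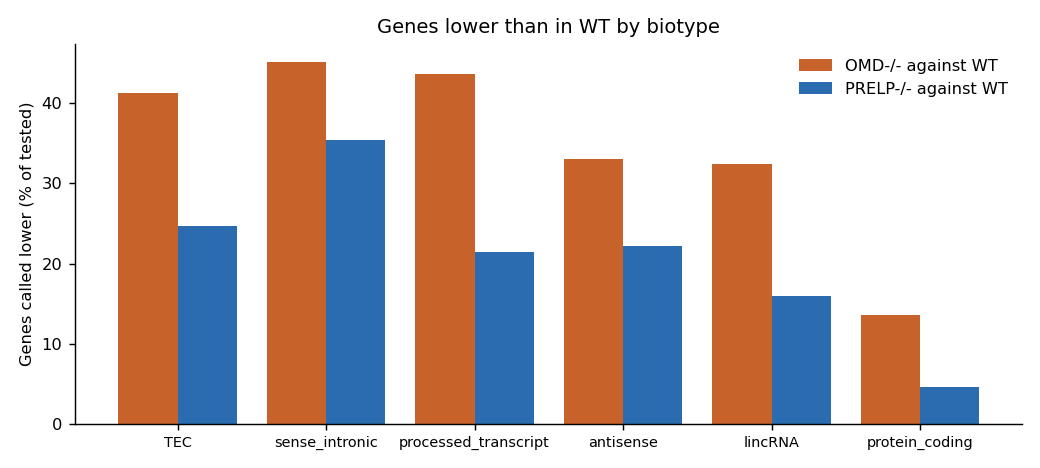
Share of tested genes called lower than in WT (percent, adjusted p under 0.05) by biotype, for OMD-/- and PRELP-/-. TEC genes stand at 41.3% and 24.7% and protein_coding genes at 13.6% and 4.51%.

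A list of 20 long noncoding RNAs, many of them known from the nucleus, was read beside the TEC genes, and 19 matched a counted gene. Of 17 tested, 12 were lower in OMD-/- and 10 in PRELP-/-, and 0 were higher, with median log2 fold changes of -1.76 and -2.21, beside 15.1% and 5.89% of all genes lower. Neat1, the scaffold of paraspeckles, was at 385 ± 46.2 CPM (n = 4) in WT, 20.4 ± 6.62 (n = 3) in OMD-/- and 16.4 ± 1.14 (n = 3) in PRELP-/-. Malat1, of nuclear speckles, was at 936 ± 172, 298 ± 24.2 and 204 ± 25.1 CPM. Meg3 had log2 fold changes of -4.77 and -5.03, Firre -4.80 and -5.02, and Tug1 -0.05 and -0.25.

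Of 44 tested genes for nuclear RNA decay and 3′ end formation, 13 were lower and 2 higher in OMD-/-, and 6 lower and 0 higher in PRELP-/-. Over all genes 15.1% were lower and 14.3% higher in OMD-/-, and 5.89% and 1.4% in PRELP-/-, and the medians of the list were only -0.13 and -0.19 on the log2 scale. Among those that fell furthest, Zfc3h1, which directs nuclear RNA to the exosome, had log2 fold changes of -1.30 and -2.12, Pabpn1, the nuclear poly(A)-binding protein, -1.72 and -1.44, and Zcchc7 -1.36 and -1.77. All 3 passed in both. Cpsf3, the nuclease that cuts before the tail is added, was higher in OMD-/- at 0.36. Their part in the levels of the TEC genes was not tested.

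Cell type markers were read beside these results. In OMD-/-, 4 of 18 urothelial, 7 of 11 fibroblast and 9 of 13 leukocyte markers were higher and 0 lower, and in PRELP-/- 1, 2 and 0 were higher, beside 14.3% and 1.4% of all genes. Summed smooth muscle markers ran from 747 to 2254 CPM in WT, 859 to 1326 in OMD-/- and 477 to 594 in PRELP-/-, and 0 of 13 passed in either comparison. Of 8 endothelial markers 0 passed. Nerve markers had 1 of 7 higher in OMD-/- and 1 lower in PRELP-/-, skeletal muscle 1 lower and 1 higher of 5 in OMD-/- and 1 lower in PRELP-/-, and the 1 adipose marker tested did not pass. Male accessory gland markers summed to at most 0.097 CPM. The part of cell make-up in the fall of the TEC genes was not tested.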

How the data were processed

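The authors deposited 1 raw count per gene and library for 55536 genes, without normalization, and tables of their DESeq2 comparisons with fold changes and p-values, which were not used. The count headers name HISAT2, and the submitters' processing notes name STAR 2.5.2b, featureCounts and GRCm38 among others. The strand setting and the use of molecular identifiers are not given in the sources used here. Identifiers were matched to GENCODE vM21.

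Every comparison used the libraries of its 2 groups alone, in R 4.3.3 with edgeR 4.0.16 (TMM, filterByExpr, robust quasi-likelihood test, two-sided, Benjamini-Hochberg over all tested genes, threshold 0.05), tested on simulated data. DESeq2 1.42.0, limma 3.58.1 and the other alternatives are given at the end. Ratios to the host used (count + 0.5) and exact permutation over 35 arrangements. Where a gene lay in more than 1 coding gene, the one with the smallest span was its host. After it was seen that some hosts had 0 counts, the host with the most counts was tried instead and then kept as an alternative only. Genes were named by level (10 highest), by change (up to 4 in each direction, with a mean of at least 0.5 CPM and no overlap with WT) and by difference from the host relative to its standard error (5 most, 3 least). One pair of the last kind is not reported here. Members and lists were chosen with earlier results of these data known. Replicate numbers did not pair knockout and WT libraries (correlations of -0.10 to 0.14). Those of the 2 knockouts correlated at 0.30, 0.18 and 0.15. The PRELP-/- against OMD-/- results above nevertheless come from a fit without pairing. An alternative fit with the replicate number as a block again called 0 genes.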

Additional observations from a re-analysis of the deposited data

Results flagged for a closer look

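Gm47260, in an intron of Ddx24, had a TMM-normalised level of 3.8 CPM in WT replicate 2, far from the other 3 WT libraries relative to their range. It was the 1 such library among 23 sets of WT values searched, and chance alone gives about 1 in 20.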

How the results depend on the processing

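The fall of the TEC genes kept its direction under every normalization, filter and tool tried, but the number of calls in PRELP-/- did not. OMD-/- against WT called 51 to 67 lower and 3 to 5 higher when single libraries were left out (5 higher without WT replicate 2), and 5 higher with limma-voom quality weights. PRELP-/- against WT called 31 to 50 lower (31 without PRELP-/- replicate 2) and 0 to 3 higher when single libraries were left out, 78 lower and 4 higher with limma-voom quality weights, and 1 higher with all libraries in 1 fit. The fit with the replicate number as a block also left out WT replicate 4, which has no partner. It called 6 lower in PRELP-/- and 55 in OMD-/- against WT, while the fits without WT replicate 4 and without the block called 34 and 58. These numbers do not pair the WT and knockout libraries, and the cause was not tested. PRELP-/- against OMD-/- called 2 higher and 2 lower with limma-voom quality weights and 0 whenever a library was left out. A minimum mean count of 30 left 76 genes, of which 30 were lower in OMD-/- and 26 in PRELP-/-. These numbers are smaller because the set is smaller, as the fits were the same. The log2 ratio of summed levels in OMD-/- was -0.60, -0.95 without the 5 highest genes and -0.44 with effective library sizes.

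Pairs with a lower ratio to the host numbered 50 to 55 in OMD-/-, 50 to 53 in PRELP-/- and 30 to 37 in PRELP-/- against OMD-/- with single libraries left out. With the host of most counts and hosts at 0 left out, chosen after seeing the data, they were 51 of 59 in each knockout, and the share of all 264 such genes lying below WT was 25.8% in OMD-/- and 23.5% in PRELP-/-.

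Named fold changes turned sign in 15 of 715 values, none of them called. With single libraries left out, Gm44250 in OMD-/- against WT ran from -0.048 to 0.024 and D430013B06Rik from -0.75 to 0.00030. In PRELP-/- against OMD-/-, Gm49246 reached 0.0030, and Gm45133 ran from -0.086 to 0.038, Gm43737 from -0.40 to 0.024, Gm37261 from -0.049 to 0.36, Gm45714 from -0.50 to 0.034, Gm42778 from -0.32 to 0.12, Gm47260 from -0.52 to 0.45 and Gm37691 from -0.25 to 0.23. Gm47260 was at -0.010 with the replicate block. The median SE of the 155 log2 fold changes was 0.38 in OMD-/- and 0.39 in PRELP-/- against WT, which limits what can be read of small changes.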
